A study of Mus musculus with 2 samples.

Results

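Ctsk-expressing wells are the reporter-positive, non-cartilage femur cells that carried cathepsin K (Ctsk) transcript at the time of sorting, and Ctsk-silent wells are those from the same sort with no Ctsk count. Of 658 wells, 653 had at least 500 detected genes and at most 20% of their counts from mitochondrial genes. Of these, 473 held less than 4000 CPM (the count of a gene per 1000000 counts of its well) summed over the cartilage genes Ucma, Matn3, Col9a1 and Lect1. Among the 473 wells, 203 had at least 100 CPM of Ctsk and are called Ctsk-expressing (115 in animal 1 and 88 in animal 2). A further 172 had 0 Ctsk counts and are called Ctsk-silent (78 in animal 1 and 94 in animal 2). The other 98 wells (46 and 52), with Ctsk above 0 but under 100 CPM, form an intermediate band that entered the fit and no contrast.

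All wells came from 2 animals of 1 litter, strain C57/B6, at day 6 after birth, with the genotype CTSK-cre+ mTMG. The Ctsk promoter drives Cre in these mice, and Cre switches on a membrane-bound green fluorescent protein that the cell and all its descendants keep. Single fluorescent cells of digested femur, labelled as mesenchymal, were sorted into plates and converted to cDNA by template switching. Animal 1 filled plate 47 and animal 2 filled plate 48, so effects of animal and of plate cannot be told apart. The contrast therefore sets cells with the reporter and Ctsk RNA against cells with the reporter and no Ctsk count, inside each animal. A Ctsk count of 0 is a statement on RNA in 1 well, not on the promoter.

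Cathepsin K is a cysteine protease of the lysosome that cleaves type I collagen, and it is best known as the enzyme with which osteoclasts dissolve the organic matrix of bone. It is secreted into an acid space by osteoclasts, while in fibroblast-like cells collagen that has been taken up is degraded inside lysosomes. Its promoter has been used to mark mesenchymal cells of the periosteum, the sheath of progenitors around bone, as well as osteoclasts. Microphthalmia-family factors, which bind E-boxes, and Nfatc1 are known to drive Ctsk transcription in osteoclasts.

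Ctsk lies on chromosome 3 of mm10, at 95499256 to 95509362 on the forward strand in GENCODE vM21 (ENSMUSG00000028111.4). Its promoter is shown because the same stretch of genome drives both the transcript that divides the wells and, in the Cre allele named after it, the reporter that gathered them. The RefSeq window on GRCm38.p6, chr3:95498960-95499259, runs from 250 bases before to 50 bases after the annotated RefSeq start. E-boxes (CANNTG, read on both strands) are in capitals.
Ctsk promoter: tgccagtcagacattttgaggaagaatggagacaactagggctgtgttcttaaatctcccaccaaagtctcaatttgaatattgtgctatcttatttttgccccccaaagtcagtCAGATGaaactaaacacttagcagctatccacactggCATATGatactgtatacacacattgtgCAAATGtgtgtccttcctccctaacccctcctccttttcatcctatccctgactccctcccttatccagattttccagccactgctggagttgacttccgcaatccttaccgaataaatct
The 3 E-boxes begin at -135, -98 and -71 relative to the start. At least 1 E-box is found in 72.3% of 32817 mouse promoters of this length, with a median of 1 per promoter. The AP-1 letters TGANTCA were not found in the window on either strand and are held by 7.81% of promoters. The Runx letters TGTGGT were not found either and are held by 16.8%. The TATA box letters, TATAAA, were also not found and are held by 13.6%. A match or its absence describes these letters only.

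The wells of both bands were sequenced to a similar order of depth, but not equally. The median total was 112006 counts in animal 1 and 129156 in animal 2 for Ctsk-expressing wells, against 75062 and 94989.5 for Ctsk-silent wells. Median detected genes were 2374 and 2358.5 in Ctsk-expressing wells, against 1961.5 and 1904.5 in Ctsk-silent wells. After each well was thinned to 10000 counts these medians were 1471 and 1453, against 1278 and 1229.5. Mitochondrial shares were 3.58% and 3.34% in Ctsk-expressing wells and 3.75% and 3.72% in Ctsk-silent wells. Ctsk-expressing wells were thus both deeper and richer in genes. Thinning and a depth window were applied to the count of called genes and to the genes named for their smallest p. The medians of the gene lists below were not recomputed under either, so the part of depth in them was not tested. Inside the window Ctsk-expressing wells were still deeper. The median total there was 109866 and 105877 counts, against 88991 and 95745 counts in Ctsk-silent wells. The names of the 473 wells held 95 distinct barcodes, which recur across plate quadrants. At the median depth of the Ctsk-silent wells a count of 0 allows up to 3 counts, or 39.97 CPM in animal 1 and 31.6 CPM in animal 2; this limit and the intervals below cover counting error only.

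Of 10 markers of osteoclasts, the classic Ctsk-producing cell, 5 were too low to test and 5 were present in both bands. Calcr, the calcitonin receptor, had 0 counts in all 4 libraries. Ocstamp, Dcstamp, Oscar and Tnfrsf11a, which serve osteoclast fusion and signalling, stayed at or under 0.314 CPM in every library of either band. Of the tested markers, Acp5, tartrate-resistant acid phosphatase, was above in both animals, at 36.1 and 25.9 CPM in Ctsk-expressing wells, against 7.42 and 19.6 CPM in Ctsk-silent wells. Mmp9, gelatinase B, was at 12.2 and 148 CPM in Ctsk-expressing wells, against 79.0 and 6.85 CPM in Ctsk-silent wells. Acp5 thus leaned one way in both animals and Mmp9 opposite ways. Of the 5 tested, 1 was above (Acp5), 1 below (Nfatc1) and 3 overlapped (Mmp9, Itgb3 and Atp6v0d2). Of all tested genes 18.1% lay above and 15.3% below. The sum over the 10 markers was 82.5 and 217 CPM in Ctsk-expressing wells and 155 and 77.0 CPM in Ctsk-silent wells. The pan-leukocyte gene Ptprc and the macrophage gene Adgre1 had 0 counts in these 4 libraries, as did the endothelial genes Kdr and Emcn. Summed macrophage markers were 9.16 and 7.15 CPM in Ctsk-expressing wells, against 34.7 and 18.2 CPM in Ctsk-silent wells, where Cd68 made up most of the sum. Hematopoietic markers (4 genes) summed to 0.964 and 0.170 CPM in Ctsk-expressing wells and to 0.471 and 2.04 CPM in Ctsk-silent wells. The part of such cells in the results was not tested.

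Ctsk itself, which chose the wells and is given only as a description, had a median of 455 CPM in Ctsk-expressing wells of animal 1 (range 103 to 2133 CPM) and 401 CPM in those of animal 2 (104 to 2072 CPM). The median well held 52 and 54.5 Ctsk counts. In the intermediate band the medians were 13.1 CPM in both animals, and 32 of 46 and 33 of 52 wells rested on exactly 1 Ctsk count. The 3 wells just inside the limit had 103, 104 and 104 CPM, and the 3 just outside had 93.7, 96.2 and 97.3 CPM. For the cartilage limit, the wells just inside held 3859 and 3983 CPM of the 4 genes and those just outside 4041 and 4050 CPM. Ctsk-expressing wells were 48.1% of the non-cartilage wells of animal 1 (exact Clopper-Pearson 95% interval 41.6% to 54.7%) and 37.6% of those of animal 2 (31.4% to 44.2%). Ctsk-silent wells were 32.6% (26.7% to 39.0%) and 40.2% (33.8% to 46.8%). Over the plate quadrants the Ctsk-expressing share ran between 40.7% and 55.1% in animal 1 and between 31.7% and 42.1% in animal 2.

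Ctsk-expressing wells were found among the wells scoring highest for each of 6 skeletal marker lists, but not evenly. A well was assigned with no minimum score, so its list does not establish its cell type. When each well was assigned to the 1 of 6 skeletal marker lists on which it scored highest, wells scoring for periosteal progenitor genes were Ctsk-expressing in 63.9% of 36 wells of animal 1 (interval 46.2% to 79.2%) and 62.5% of 24 wells of animal 2 (40.6% to 81.2%). Wells scoring for tendon genes were close to that, at 60.0% of 55 (45.9% to 73.0%) and 61.5% of 39 (44.6% to 76.6%). These 2 groups of wells did not differ beyond their intervals. Fibroblast-scoring wells were Ctsk-expressing in 30.0% of 50 (17.9% to 44.6%) and 33.3% of 69 (22.4% to 45.7%), and pericyte-scoring wells in 30.0% of 30 (14.7% to 49.4%) and 35.7% of 14 (12.8% to 64.9%). Osteoblast-scoring wells gave 51.4% of 37 (34.4% to 68.1%) and 31.0% of 29 (15.3% to 50.8%). Articular-scoring wells gave 51.6% of 31 (33.1% to 69.8%) and 20.3% of 59 (10.98% to 32.8%), intervals of the 2 animals that do not overlap. The median Ctsk level followed the same order at its upper end. It was 373 and 275 CPM in periosteal progenitor-scoring wells and 305 and 216 CPM in tendon-scoring wells, and it was under 10 CPM in fibroblast- and pericyte-scoring wells of both animals.

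**Figure D1:**
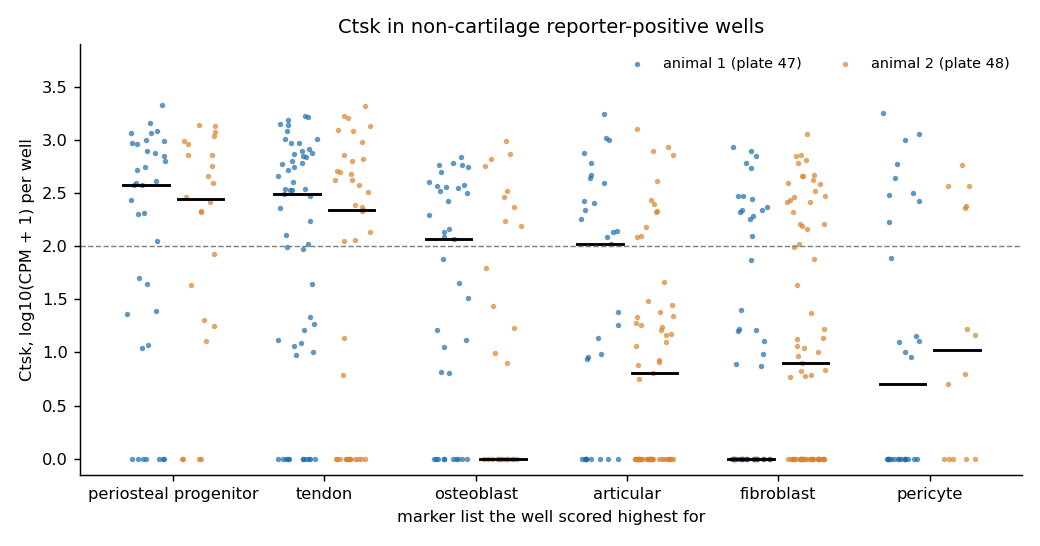
Ctsk level of each of the 473 non-cartilage wells as log10(CPM + 1), by the marker list on which the well scored highest and by animal; the black bar is the median and the dashed line the limit of 100 CPM. Periosteal progenitor- and tendon-scoring wells have medians above the limit in both animals, while fibroblast- and pericyte-scoring wells have medians well below it. Wells above 1000 CPM still occur among fibroblast-scoring wells of animal 2 and pericyte-scoring wells of animal 1.

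Between Ctsk-expressing and Ctsk-silent wells, the genes with the smallest p were Alpl, Pcolce and Serpinf1 on the higher side and Acta2 on the lower side among those with enough signal to be named, but with 2 animals none passed the test over all genes. Counts were summed per animal and band into 6 libraries of 4852081 to 14517687 counts and fitted with edgeR's quasi-likelihood test, animal as a block. At a Benjamini-Hochberg adjusted p of 0.05, 0 of 13517 genes (0%) passed, and every adjusted p was 1. Without adjustment 406 genes (3.0%) had a p under 0.05, 270 higher and 136 lower in Ctsk-expressing wells. The DESeq2 Wald test on the same libraries called 67 genes (0.496%), 43 higher and 24 lower, and left 1835 without an adjusted p. Both Ctsk-expressing libraries lay above both Ctsk-silent libraries for 2441 genes (18.1%) and below both for 2070 (15.3%). Over the 3067 genes with at least 50 CPM, the log2 ratios of the 2 animals had a Pearson correlation of 0.22 and a Spearman correlation of 0.17 across genes, and 53.5% had the same sign. Genes are not independent replicates. The median log2 fold change over all genes was 0.03. The values below are CPM of the summed libraries, scaled with TMM factors unless stated otherwise and given for animal 1 and then animal 2. Sums over marker lists, the untested markers, Ctss and Arnt, above and below, are scaled to library totals alone. A log2 fold change is that of edgeR ± its standard error. The p-values of fits over these 6 libraries measure the spread between these 2 animals only. A summed level does not tell more positive wells from more RNA per well.

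Alpl, tissue-nonspecific alkaline phosphatase, the enzyme that frees phosphate for bone mineral (ENSMUSG00000028766.10, chromosome 4, 137741733 to 137796384), had the smallest p of all genes with enough signal to be named. It stood at 190 and 145 CPM in Ctsk-expressing wells, against 17.5 and 17.4 CPM in Ctsk-silent wells. The bands were far apart in both animals, with a log2 fold change of 3.24 ± 0.34 in edgeR and a DESeq2 adjusted p of 8.76e-08. Alpl was nevertheless a transcript of a minority. In wells thinned to 10000 counts it was seen in 20.9% and 13.6% of Ctsk-expressing wells and in 7.79% and 3.19% of Ctsk-silent wells. In wells of 60000 to 160000 counts its log2 fold change was 2.10.

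Pcolce, which enhances the cutting of the carboxyl propeptide from fibrillar procollagens (ENSMUSG00000029718.14, chromosome 5, 137605103 to 137613784), was at 2183 and 1648 CPM in Ctsk-expressing wells, against 857 and 860 CPM in Ctsk-silent wells. Its log2 fold change was 1.14 ± 0.17, with a DESeq2 adjusted p of 9.91e-08. Unlike Alpl, Pcolce was seen in most cells of both bands. In thinned wells it was detected in 93.9% and 86.4% of Ctsk-expressing wells and 72.7% and 66.0% of Ctsk-silent wells. Serpinf1, pigment epithelium-derived factor, a secreted serpin whose loss causes a form of brittle bone disease in humans (ENSMUSG00000000753.15, chromosome 11, 75409769 to 75422701), was at 1613 and 1180 CPM in Ctsk-expressing wells, against 584 and 602 CPM in Ctsk-silent wells. Its log2 fold change was 1.22 ± 0.18, with a DESeq2 adjusted p of 4.24e-07. Both genes were higher in Ctsk-expressing wells in 8 of 8 plate quadrants.

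The same pair passed when the animal and the highest-scoring marker list of the wells were held fixed. A well was assigned to its highest list with no minimum score. Wells were summed per animal, marker list and band for the 11 animal and list pairs with at least 5 wells in both bands. Each pair was 1 level of a single term of the edgeR fit. Of 6420 genes 2 passed (0.0312%), and they were Pcolce (log2 fold change 1.09 ± 0.17, adjusted p = 0.0387) and Serpinf1 (1.21 ± 0.19, adjusted p = 0.0387). Each rose in Ctsk-expressing wells in this fit and was higher in 11 of 11 pairs. Neither gene was used to score the wells. Over all alternatives the adjusted p ran from 9.91e-08 (DESeq2) to 1 for Pcolce and from 4.24e-07 (DESeq2) to 1 for Serpinf1. This fit was an alternative to the one over whole bands, and its libraries still come from 2 animals. With 22 libraries it had 10 residual degrees of freedom, against 2 in the fit over whole bands. Marker lists of 1 animal thus counted as replicates in its p-values.

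The other genes named on the higher side were matrix, mineral and retinoid genes. Ibsp, bone sialoprotein, was at 486 and 366 CPM in Ctsk-expressing wells, against 94.0 and 140 CPM in Ctsk-silent wells (log2 fold change 1.86 ± 0.31). The bands did not overlap, but 15.2% of the counts came from 1 well, and in wells of 60000 to 160000 counts the log2 fold change was 0.53. Crabp1, which binds retinoic acid in the cytosol, was at 405 and 237 CPM in Ctsk-expressing wells, against 30.0 and 43.3 CPM in Ctsk-silent wells (3.01 ± 0.51). Cpxm1, a secreted carboxypeptidase-family protein, was at 101 and 109 CPM in Ctsk-expressing wells, against 12.4 and 10.4 CPM in Ctsk-silent wells (3.24 ± 0.56), and it was higher in 11 of 11 animal and list pairs. These 3 genes were also called by DESeq2. Lox, lysyl oxidase, which starts the crosslinking of collagen and elastin, was at 678 and 351 CPM in Ctsk-expressing wells and 285 and 190 CPM in Ctsk-silent wells (1.07 ± 0.19); the bands did not overlap. Egfl6, a secreted matrix protein with EGF repeats, was at 118 and 72.2 CPM in Ctsk-expressing wells and 36.3 and 16.4 CPM in Ctsk-silent wells.

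On the lower side, Acta2 had the smallest p among the genes with enough signal to be named. The gene encodes smooth muscle actin (ENSMUSG00000035783.9, chromosome 19, 34241090 to 34255590). Acta2 was at 157 and 63.9 CPM in Ctsk-expressing wells, against 1183 and 553 CPM in Ctsk-silent wells. Its log2 fold change was -2.99 ± 0.49, with a DESeq2 adjusted p of 2.71e-14. The difference lay in how much RNA the summed wells held more than in how many wells had any. In thinned wells Acta2 was detected in 9.57% and 12.5% of Ctsk-expressing wells, against 19.5% and 10.6% of Ctsk-silent wells, so the 2 animals differ in direction on that measure. Myl9, a regulatory myosin light chain, was at 174 and 150 CPM in Ctsk-expressing wells, against 536 and 265 CPM in Ctsk-silent wells (-1.22 ± 0.26); within marker lists the sign turned, to 0.44 ± 0.69. Mustn1, a small nuclear protein of developing muscle and skeleton, was at 97.2 and 149 CPM in Ctsk-expressing wells, against 313 and 304 CPM in Ctsk-silent wells.

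The remaining genes named on the lower side were of mixed kind. Efemp1, a fibulin of the extracellular matrix, was at 10.6 and 30.1 CPM in Ctsk-expressing wells, against 43.6 and 109 CPM in Ctsk-silent wells. Ifitm1, an interferon-inducible membrane protein, was at 7.05 and 15.8 CPM in Ctsk-expressing wells, against 59.7 and 63.0 CPM in Ctsk-silent wells, with 23.9% of its counts in 1 well. Cox4i2, an isoform of a cytochrome c oxidase subunit, was at 43.4 and 32.2 CPM, against 97.1 and 91.5 CPM (log2 fold change -1.33). All 3 had bands that did not overlap. S100a1, a calcium-binding protein, was at 205 and 166 CPM in Ctsk-expressing wells, against 362 and 349 CPM in Ctsk-silent wells (-0.94). With the cartilage limit at 1000 CPM these values were -0.66 for Cox4i2 and -0.26 for S100a1, and within marker lists -0.75 and -0.17. In cartilage wells S100a1 was at 592 and 664 CPM where Ctsk was expressed, against 795 and 735 CPM where it was silent. Fam19a5, a secreted peptide, was at 9.54 and 21.3 CPM in Ctsk-expressing wells, against 39.7 and 71.2 CPM in Ctsk-silent wells. DESeq2 called 10 of these 16 genes, the exceptions being Egfl6, Fam19a5, Cox4i2, Efemp1, Ifitm1 and S100a1.

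**Figure D2:**
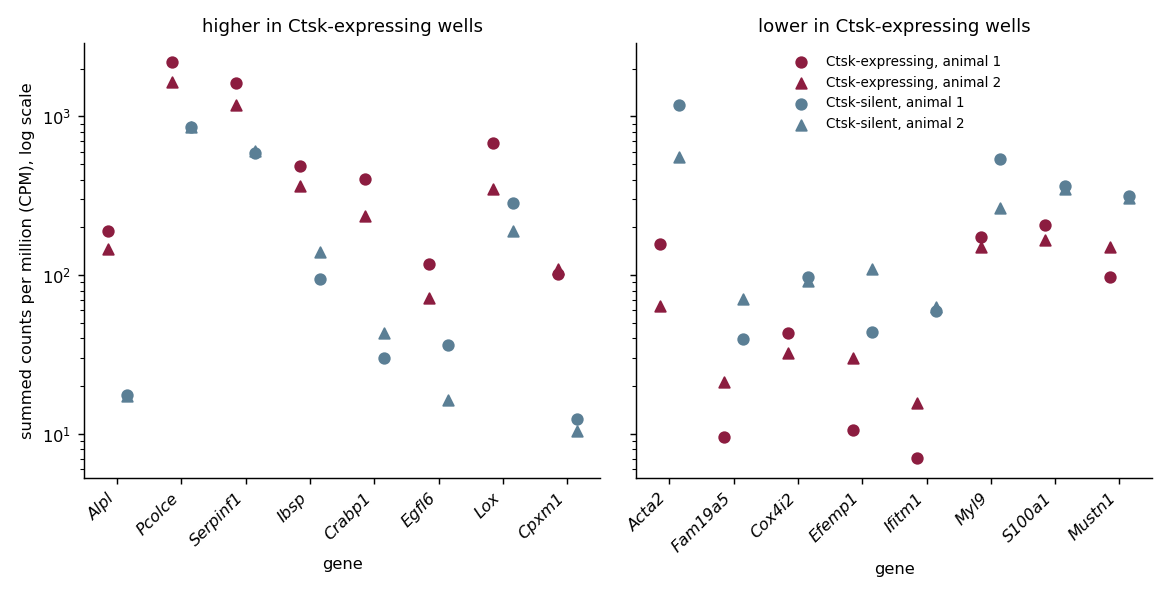
CPM of the summed libraries (log scale) for the 8 genes with the smallest p in each direction that met the limits on level and on single wells; circles are animal 1, triangles animal 2. In each panel the Ctsk-expressing libraries lie on 1 side of the Ctsk-silent libraries, from 190 and 145 against 17.5 and 17.4 CPM for Alpl to 157 and 63.9 against 1183 and 553 CPM for Acta2.

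The proteases and membranes of the lysosome, the compartment in which cathepsin K works, were mostly at higher levels where Ctsk was expressed. Of 11 other cathepsins and lysosomal proteases tested, 6 were above in both animals, 0 below and 5 overlapped, with a median log2 fold change of 0.56. Over all tested genes, 18.1% lay above and 15.3% below. Ctsb, cathepsin B, was at 677 and 607 CPM in Ctsk-expressing wells, against 339 and 392 CPM in Ctsk-silent wells (0.81 ± 0.19). Ctsl, cathepsin L, was at 989 and 935 CPM, against 694 and 614 CPM. Ctsb was higher in 11 of 11 animal and list pairs. Ctsa, the protective protein of lysosomal galactosidase, was at 176 and 171 CPM in Ctsk-expressing wells, against 85.0 and 96.0 CPM in Ctsk-silent wells. Ctsd, cathepsin D, overlapped (343 and 358 CPM, against 193 and 359 CPM), as did Ctsz and Ctsh. None of these genes was called by edgeR or DESeq2.

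Of 16 lysosomal membrane, hydrolase and acidification genes tested, 11 were above and 0 below, with a median of 0.42. The shares over all tested genes were 18.1% above and 15.3% below. Npc2, which carries cholesterol out of lysosomes, was at 669 and 838 CPM in Ctsk-expressing wells, against 395 and 387 CPM in Ctsk-silent wells (log2 fold change 0.94 ± 0.19, DESeq2 adjusted p = 0.0129). Cd63, a tetraspanin of late endosomes, was at 2672 and 2731 CPM in Ctsk-expressing wells, against 1644 and 1882 CPM in Ctsk-silent wells (0.62 ± 0.14, DESeq2 adjusted p = 0.0190). Npc2 was higher in 11 of 11 animal and list pairs and Cd63 in 10. Of the proton pump, the accessory subunits Atp6ap1 and Atp6ap2 were above. Atp6v0e was at 765 and 836 CPM in Ctsk-expressing wells and 689 and 844 CPM in Ctsk-silent wells, and Atp6v1a and Atp6v1b2 also overlapped.

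Among inhibitors of cathepsins and known drivers of Ctsk, 0 genes had both Ctsk-expressing libraries above both Ctsk-silent libraries. For all tested genes the shares were 18.1% above and 15.3% below. Cst3, cystatin C, the main secreted inhibitor of cysteine cathepsins, was at 3606 and 3029 CPM in Ctsk-expressing wells, against 4365 and 4541 CPM in Ctsk-silent wells (log2 fold change -0.43 ± 0.14). Cstb, the cytosolic cystatin B, was at 343 and 384 CPM, against 404 and 423 CPM. Both cystatins were below in both animals, and neither was called. Of 12 known regulators of Ctsk transcription tested, 0 were above and 5 below (Mitf, Nfatc1, Usf1, Jund and Traf6), with a median of -0.37. The median ratio was -0.10 in animal 1 and -0.62 in animal 2, and none of the 12 was called by edgeR or DESeq2. Jund differed by little (DESeq2 log2 fold change -0.12 ± 0.58). Scaled together with the cartilage wells, Mitf was at 1.86 and 0 CPM in Ctsk-expressing wells, against 12.8 and 6.38 CPM in Ctsk-silent wells. Its DESeq2 log2 fold change was -4.63 ± 2.62. Traf6 was at -1.51 ± 1.98 and Usf1 at -1.47 ± 0.97 on the same measure. Nfatc1, which drives Ctsk in osteoclasts, was at 35.3 and 35.3 CPM in Ctsk-expressing wells and 40.03 and 54.3 CPM in Ctsk-silent wells. Fos, an AP-1 subunit, was at 1918 and 2063 CPM in Ctsk-expressing wells, against 1695 and 3164 CPM in Ctsk-silent wells, and overlapped. Usf2, an E-box-binding factor, was higher within each animal, at 21.1 and 31.7 CPM in Ctsk-expressing wells, against 5.87 and 27.5 CPM in Ctsk-silent wells, although the bands overlap between animals. Runx2 overlapped as well, at 81.2 and 38.0 CPM, against 9.58 and 49.8 CPM. The neighbouring genes on the chromosome were low in both bands: Ctss, cathepsin S, stayed at or under 0.0689 CPM, and Arnt was at 9.51 and 37.9 CPM in Ctsk-expressing wells, against 1.88 and 5.71 CPM in Ctsk-silent wells.

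Metalloproteinases, which degrade collagen and other matrix outside the lysosome, and their inhibitors were mixed. Of 14 metalloproteinases and inhibitors tested, 7 were above and 2 below, with a median of 0.87. All tested genes together gave 18.1% above and 15.3% below. Mmp2, gelatinase A, was at 1213 and 823 CPM in Ctsk-expressing wells, against 362 and 405 CPM in Ctsk-silent wells (log2 fold change 1.36 ± 0.29, DESeq2 adjusted p = 9.23e-05). Mmp14, the membrane collagenase that activates Mmp2, was at 284 and 219 CPM in Ctsk-expressing wells, against 116 and 96.2 CPM in Ctsk-silent wells (1.23 ± 0.27). Timp2, which takes part in that activation and also inhibits, was at 672 and 616 CPM, against 355 and 381 CPM. Mmp23, a membrane-anchored metalloproteinase, was at 368 and 268 CPM in Ctsk-expressing wells, against 114 and 135 CPM in Ctsk-silent wells. All 4 were higher in 8 of 8 quadrants. The matrix proteases Adamts1 and Adamts5 were below in both animals, at 70.2 and 90.4 CPM, against 104 and 118 CPM, for Adamts1. Timp1, Timp3, Mmp9 and Mmp11 overlapped. EdgeR called 0 of the 14 and DESeq2 called 1, Mmp2.

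The collagens that cathepsin K cuts, and the machinery that makes them, leaned the same way by smaller amounts. Of 13 fibrillar and associated collagens, 10 were above and 0 below, with a median of 0.52, although the median ratio was 0.83 in animal 1 and 0.10 in animal 2. Among all tested genes 18.1% were above and 15.3% below. Col1a1, a chain of type I collagen, was at 11985 and 7080 CPM in Ctsk-expressing wells, against 6725 and 6683 CPM in Ctsk-silent wells. Col1a2, the other chain, overlapped, at 16052 and 10130 CPM, against 9574 and 10664 CPM. The type I collagen difference lay mainly in animal 1. Col14a1, a fibril-associated collagen, was at 505 and 641 CPM in Ctsk-expressing wells, against 309 and 286 CPM in Ctsk-silent wells, and Col5a1 was at 594 and 339 CPM, against 290 and 255 CPM. No collagen was called by edgeR or DESeq2.

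Of 12 collagen processing and crosslinking genes, 6 were above, 1 was below and 5 overlapped, with a median of 0.55. For this list and those that follow here, the shares over all tested genes were 18.1% above and 15.3% below. Beside Pcolce and Lox, Bmp1, the procollagen protease that Pcolce enhances, was at 147 and 157 CPM in Ctsk-expressing wells, against 94.1 and 98.9 CPM in Ctsk-silent wells. Serpinh1, the collagen chaperone of the endoplasmic reticulum, was at 879 and 750 CPM, against 488 and 550 CPM. The 1 gene below was Pcolce2, the paralog of Pcolce, at 48.4 and 38.5 CPM in Ctsk-expressing wells, against 135 and 139 CPM in Ctsk-silent wells (log2 fold change -1.64 ± 0.41), lower in 8 of 8 quadrants. The 2 enhancers of procollagen cutting thus lay on opposite sides in both animals. Of 10 small leucine-rich proteoglycans, which coat collagen fibrils, 5 were above and 0 below. Lum, lumican, was at 2668 and 2002 CPM in Ctsk-expressing wells, against 1583 and 1473 CPM in Ctsk-silent wells, while the abundant Dcn, decorin, overlapped at 4481 and 3925 CPM, against 3989 and 3882 CPM. Of 15 secretory pathway genes 9 were above and 0 below, with a median of 0.41; Calr, calreticulin, was at 449 and 426 CPM, against 317 and 302 CPM.

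Marker lists of skeletal cell types divided the bands. On the higher side, 6 of 10 osteoblast markers were above and 0 below (median 1.72), 6 of 8 tendon markers were above and 0 below (1.15), and 5 of 7 periosteal progenitor markers were above and 1 below (0.70). Taken over all tested genes, 18.1% were above and 15.3% below. The osteoblast median ratio was 2.43 in animal 1 and 0.86 in animal 2. Summed osteoblast markers went opposite ways in the 2 animals. They came to 2536 and 1728 CPM in Ctsk-expressing wells, against 1122 and 1932 CPM in Ctsk-silent wells. Sp7, the osteoblast transcription factor osterix, was at 106 and 31.6 CPM in Ctsk-expressing wells, against 10.5 and 15.6 CPM in Ctsk-silent wells, with 20.1% of its counts in 1 well. Car3, a carbonic anhydrase, was at 176 and 136 CPM in Ctsk-expressing wells, against 0.464 and 13.2 CPM in Ctsk-silent wells, with 22.4% of its counts in 1 well. The late osteoblast genes Bglap and Spp1 overlapped, Spp1 at 1250 and 795 CPM, against 862 and 1504 CPM. Scx, the tendon transcription factor scleraxis, was at 57.7 and 45.7 CPM in Ctsk-expressing wells, against 26.2 or fewer CPM in every other library (8.81 and 13.02 CPM in Ctsk-silent wells). Fmod, fibromodulin, was at 1030 and 1094 CPM in Ctsk-expressing wells, against 272 and 706 CPM in Ctsk-silent wells. Postn, periostin, the matrix protein for which the periosteum is known, was at 1945 and 1333 CPM in Ctsk-expressing wells, against 937 and 769 CPM in Ctsk-silent wells (log2 fold change 0.92 ± 0.21, DESeq2 adjusted p = 0.00238). Aspn, asporin, was at 1835 and 1577 CPM, against 1243 and 813 CPM (0.76 ± 0.16, DESeq2 adjusted p = 0.0129). Prrx1, a limb mesenchyme transcription factor, was the member below, at 219 and 193 CPM, against 242 and 233 CPM.

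On the lower side, 2 of 5 pericyte markers were below and 0 above (median -2.41), 5 of 8 fibroblast markers were below and 0 above (-1.01), and 3 of 4 articular markers were below and 0 above (-1.01). These lists are short, and 15.3% of all tested genes lay below and 18.1% above. Myh11, smooth muscle myosin, was at 10.9 and 0.0880 CPM in Ctsk-expressing wells, against 99.4 and 40.6 CPM in Ctsk-silent wells. Myh11 and Acta2 were the 2 pericyte markers below, and the other 3, Rgs5, Notch3 and Kcnj8, overlapped. Rgs5 went opposite ways in the 2 animals. Scaled together with the cartilage wells, it was at 90.4 and 111 CPM in Ctsk-expressing wells, against 643 and 25.3 CPM in Ctsk-silent wells. Cd34, a sialomucin of connective tissue progenitors, was at 109 and 265 CPM in Ctsk-expressing wells, against 450 and 368 CPM in Ctsk-silent wells (log2 fold change -1.28 ± 0.42). Ly6a was at 249 and 784 CPM, against 1023 and 948 CPM. Within marker lists both signs turned, to 0.26 ± 0.76 for Cd34 and 1.31 ± 1.14 for Ly6a. The fibroblast difference was larger in animal 1 (median ratio -1.72) than in animal 2 (-0.32), and the difference between animals cannot be tested. Mfap5, a microfibril protein, was at 771 and 1765 CPM in Ctsk-expressing wells, against 2118 and 2288 CPM in Ctsk-silent wells (-0.90 ± 0.30, and 0.60 ± 0.75 within marker lists). Prg4, lubricin of the joint surface, was at 218 and 711 CPM in Ctsk-expressing wells, against 741 and 768 CPM in Ctsk-silent wells. Cytl1, a secreted protein of cartilage, was at 55.3 and 37.0 CPM in Ctsk-expressing wells and 126 and 293 CPM in Ctsk-silent wells. Summed fibroblast markers came to 1932 and 4225 CPM in Ctsk-expressing wells, against 5340 and 4537 CPM in Ctsk-silent wells. Wells were assigned to marker lists by these same genes, so their values within lists are partly set by the assignment. Within marker lists the medians of lists outside the scoring were 0.81 for the other cathepsins (10 of the 11 tested) and 0.52 for the lysosomal genes (15 of the 16 tested).

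Cartilage genes outside the rule were still present in both bands. Of 6 tested, 2 were above (Acan and Comp) and 2 below (Sox9 and Col2a1), against 18.1% and 15.3% of all tested genes. Col2a1, the cartilage fibril collagen, was at 878 and 508 CPM in Ctsk-expressing wells, against 1421 and 3240 CPM in Ctsk-silent wells.

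Regulator groups were mixed, against 18.1% of all tested genes above and 15.3% below. Of 15 surface genes used to define skeletal stem and progenitor cells, 1 was above and 4 below (median -0.14; -0.71 in animal 1 and 0.29 in animal 2). Cd200, a marker of skeletal stem cells, was at 188 and 81.4 CPM in Ctsk-expressing wells, against 120 and 133 CPM in Ctsk-silent wells, and overlapped. Lepr, the leptin receptor of marrow stroma, was below in both animals, with 29.7% of its counts in 1 well. Of 20 skeletal transcription factors 4 were above and 3 below (-0.14). Twist1, a mesenchymal factor, was at 55.6 and 52.4 CPM in Ctsk-expressing wells, against 13.3 and 27.2 CPM in Ctsk-silent wells.

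Signalling lists were mixed, against 18.1% of all tested genes above and 15.3% below. The members named were chosen after their values were seen. Of 15 Wnt pathway genes 5 were above and 3 below. Sfrp2, a secreted Wnt modulator, was at 113 and 118 CPM in Ctsk-expressing wells, against 11.6 and 25.9 CPM in Ctsk-silent wells (log2 fold change 2.78 ± 0.46, DESeq2 adjusted p = 0.000190), with 28.3% of its counts in 1 well. Dkk3 was at 187 and 199 CPM, against 93.0 and 67.2 CPM (1.29 ± 0.26). Of 18 TGF-beta and BMP genes 4 were above and 2 below. Tgfbi, a TGF-beta-induced matrix protein, was at 187 and 300 CPM in Ctsk-expressing wells, against 90.4 and 138 CPM in Ctsk-silent wells, and the ligand Bmp4 was below, at 34.1 and 36.5 CPM, against 61.7 and 67.6 CPM. Of 10 IGF genes 2 were above and 1 below; Igf2r, the receptor that carries lysosomal enzymes to the lysosome, was at 114 and 65.8 CPM in Ctsk-expressing wells, against 49.9 and 39.3 CPM in Ctsk-silent wells. Of 7 stromal factors that regulate osteoclasts 0 were above and 2 below: Tnfrsf11b, the decoy receptor osteoprotegerin, at 17.0 and 27.0 CPM, against 30.9 and 34.5 CPM, and Csf1. Tnfsf11, the osteoclast-inducing ligand, was at 10.6 and 7.66 CPM in Ctsk-expressing wells, against 21.8 and 0.224 CPM in Ctsk-silent wells.

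Stress and housekeeping lists followed. Of 15 immediate early and heat shock genes, which respond to tissue digestion, 0 were above and 4 below, with a median of -0.45; the median ratio was -0.08 in animal 1 and -0.74 in animal 2. Of 13 glycolysis and hypoxia genes 1 was above and 1 below (-0.00069). Of 16 ribosomal protein genes 0 were above and 0 below (0.01), and of 12 cell cycle genes 0 were above and 2 below (-0.08). The ribosomal median was 0.23 in animal 1 and -0.17 in animal 2, so the animals lay on opposite sides of 0. All list counts are to be read against the 18.1% of all tested genes that lay above and the 15.3% that lay below. The lists share members (Fmod is in both the tendon and the proteoglycan list, for example), so their counts are not independent.

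**Figure D3:**
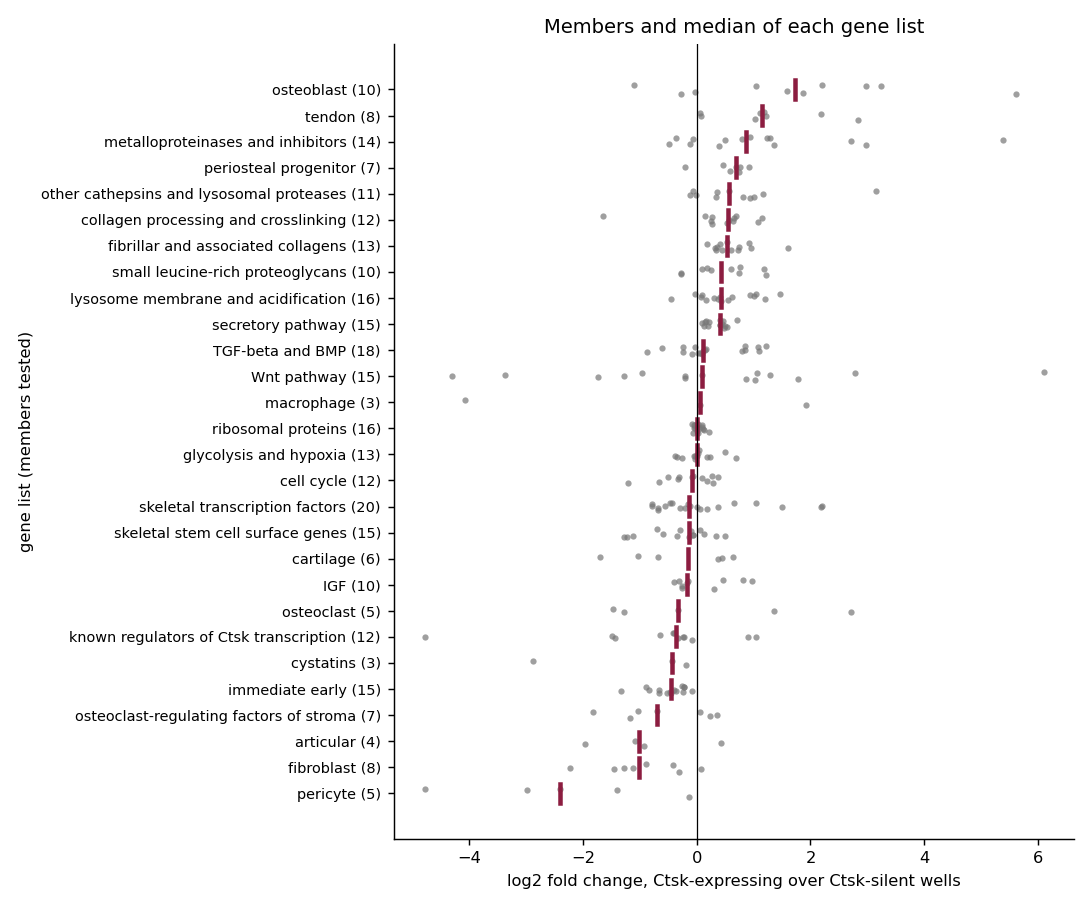
Log2 fold change of each tested list member (grey points) and the list median (red bar), Ctsk-expressing over Ctsk-silent wells, for the lists with at least 3 tested members; the number tested is in parentheses. The osteoblast list has the highest median (1.72, with 2.43 in animal 1 and 0.86 in animal 2) and the pericyte list the lowest (-2.41). Ribosomal proteins are at 0.01 (0.23 in animal 1 and -0.17 in animal 2).

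A division of the wells into 4 Ctsk levels asked whether the differences grew with Ctsk. The levels were 0 counts, above 0 to under 100 CPM, 100 to under 500 CPM, and 500 CPM or more, with 78, 46, 60 and 55 wells in animal 1 and 94, 52, 54 and 34 in animal 2. Values here are scaled to library totals alone. Of 294 genes described, 7 had a strictly higher level at each step in both animals (Pcolce, Serpinf1, Crabp1, Cpxm1, Aspn, Cd63 and Mmp2) and 4 a strictly lower one (Acta2, Ifitm1, Pcolce2 and Bmp4). Over all 13517 tested genes the counts were 29 (0.215%) higher and 37 (0.274%) lower at each step. The described genes include those named for the smallest p between Ctsk-expressing and Ctsk-silent wells, so their order across the levels partly restates that choice. Pcolce was at 870, 1199, 1877 and 2291 CPM in animal 1 and 781, 1011, 1511 and 1749 CPM in animal 2. Serpinf1 was at 593, 965, 1250 and 1884 CPM in animal 1 and 547, 781, 966 and 1468 CPM in animal 2. Both were thus graded across the range, including between wells with no and with little Ctsk. Acta2 ran the other way, at 1202, 268, 188 and 90.8 CPM in animal 1 and 502, 342, 69.6 and 46.996 CPM in animal 2.

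Other genes were high in only part of the range. Ibsp was at 95.4, 246, 770 and 16.1 CPM in animal 1 and 127, 202, 541 and 2.20 CPM in animal 2, so the bone sialoprotein transcript sat with moderate Ctsk and was low where Ctsk was highest. Ogn, osteoglycin, was level up to 500 CPM of Ctsk in animal 1 (783, 786 and 781 CPM) and stood at 1688 CPM above it; in animal 2 it was at 497, 426, 712 and 1287 CPM. Ctsl was at 705, 829, 760 and 1165 CPM in animal 1 and 558, 446, 782 and 1133 CPM in animal 2. Cd34 was at 457, 226, 136 and 54.6 CPM in animal 1, whereas in animal 2 it was at 334, 350, 360 and 60.7 CPM. Thbs1 was at 226, 153, 104 and 84.3 CPM in animal 1 and 196, 300, 131 and 44.1 CPM in animal 2. Alpl stood at 17.7, 91.5, 207 and 139 CPM in animal 1 and 15.8, 49.0, 149 and 124 CPM in animal 2, with its highest level also at 100 to under 500 CPM of Ctsk. The 4 levels share their animals and differ in median depth, which was 75062, 93717.5, 125858 and 102989 counts in animal 1.

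**Figure D4:**
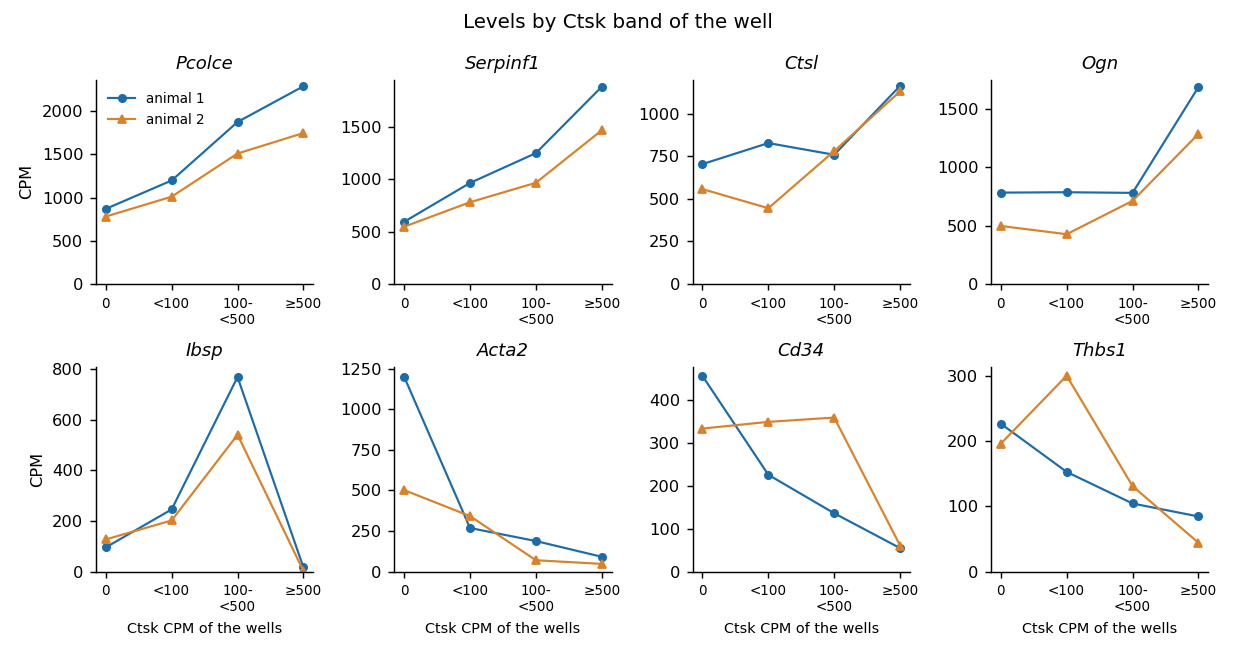
CPM of 8 genes in wells grouped by their own Ctsk level, from 0 to 500 CPM or more, 1 line per animal; each point is 1 summed library with no error. Pcolce and Serpinf1 are higher and Acta2 lower at each step in both animals, Ibsp peaks at 100 to under 500 CPM (770 and 541 CPM), and Ctsl and Ogn stand highest in the wells with the most Ctsk.

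The 180 cartilage wells, left out so far, gave the same contrast in another kind of cell. Ctsk-expressing wells were 14 of 79 in animal 1 (17.7%, interval 10.04% to 27.9%) and 21 of 101 in animal 2 (20.8%, 13.4% to 30.0%), shares below those of the non-cartilage wells in both animals. A test of whether the contrast differed between non-cartilage and cartilage wells (edgeR interaction, 8 libraries) called 0 of 13544 genes (0%), with 728 at an unadjusted p under 0.05 and 113 called by DESeq2. Pcolce was at 739 and 1125 CPM in Ctsk-expressing cartilage wells, against 301 and 563 CPM in Ctsk-silent cartilage wells, and its contrast in non-cartilage wells differed from this by 0.05 ± 0.46 on the log2 scale. Mmp2 was at 935 and 482 CPM, against 321 and 296 CPM, with a difference of 0.21 ± 0.42. Serpinf1 was at 671 and 559 CPM in Ctsk-expressing cartilage wells, against 173 and 124 CPM in Ctsk-silent ones, and its contrast in non-cartilage wells minus that in cartilage wells was -0.86 ± 0.28, which did not pass (adjusted p = 0.866 in edgeR). These genes were thus higher with Ctsk in both kinds of cell. Cpxm1 was not, at 48.9 and 25.1 CPM in Ctsk-expressing cartilage wells, against 71.9 and 37.1 CPM in Ctsk-silent ones (difference 3.79 ± 0.76, adjusted p = 0.866). It was not the only exception. Efemp1 turned to the higher side, at 75.9 and 189 CPM, against 8.34 and 22.6 CPM (difference -5.07 ± 0.62, adjusted p = 0.866 in edgeR). Fam19a5 turned likewise, at 129 and 143 CPM, against 99.1 and 53.0 CPM. Alpl went opposite ways in the 2 animals, at 33.9 and 19.7 CPM, against 0 and 36.8 CPM. Acta2 was near 0 in cartilage wells of both bands except for 10.1 CPM in those of animal 2 that expressed Ctsk.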

How the data were processed

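The data are single-well RNA counts from 2 animals. The authors deposited 1 table of raw counts, 24866 genes by 658 wells; CASAVA and build mm10 are named per the submitters' processing notes. The aligner, counting tool, annotation and any collapsing of PCR duplicates are not stated in the sources used here, so a count was not read as a molecule. Well names give the plate, and each plate is 1 animal. All members and gene lists were chosen with earlier results of these data known.

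Counts were summed per animal and Ctsk band and tested with edgeR 4.0.16 (quasi-likelihood, TMM, filterByExpr, a block for animal, 2 residual degrees of freedom) under R 4.3.3. The block is a true pair, since all bands of a plate come from the same animal. Ctsk, the 4 cartilage genes and 30 mitochondrial genes were left out of the test. DESeq2 1.42.0 was an alternative, as were other scalings, filters, Ctsk and cartilage limits, thinning, depth limits and marker list as a covariate. The 16 named genes follow a rule: since fewer than 5 genes passed in either direction, the 8 with the smallest p per direction among those with at least 50 CPM in the higher band, the same sign in both animals and no well above 25% of their counts; list members are named beside them, chosen after their values were seen. Of 305 list genes 303 were in the table. A well was assigned to the marker list with its highest mean z-score of log2(CPM + 1). No doublet search was run. The scripts were tested on simulated counts. Promoter sequences are from RefSeq (GRCm38.p6). Python 3.11.15 was used for the rest.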

Additional observations from a re-analysis of the deposited data

How the results depend on the processing

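The count of genes called between Ctsk-expressing and Ctsk-silent wells was 0 in edgeR under 10 alternatives, no replicate block among them (580 genes at an unadjusted p under 0.05, against 406 with it; 281 to 968 over these 10). It was 67 with DESeq2 and 2 with marker list as a covariate, where 1 list member (Pcolce) was called, against 0. The cause of the gap between the tools was not tested. For the interaction with cartilage wells the count was 0 in edgeR, also with no replicate block (982 at an unadjusted p under 0.05), and 113 with DESeq2. Leaving out 1 animal leaves no residual degrees of freedom and hence no test, so log2 ratios per animal stand in its place. Of 221 recomputed values of the 16 named genes, 207 kept direction and call, 12 gained a call and 2 changed sign. Ibsp was at -3.81 when Ctsk-expressing meant 500 CPM or more, and Myl9 at 0.44 with marker list as a covariate. Over all alternatives and both animals, Pcolce ranged from 0.94 to 1.39, Serpinf1 from 0.97 to 1.62, Alpl from 2.10 to 3.82 and Acta2 from -3.50 to -2.18. The window of 60000 to 160000 counts was chosen after seeing the data. Of 56 recomputed list medians 15 moved, 14 of them with marker list as a covariate. The 2 animals set the precision, and 8 Ctsk-silent wells had under 30000 counts, too few for a 0 to exclude 100 CPM.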
